A study of Mus musculus with 6 samples.

Results

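The genes described here encode the subunits, regulators and assembly factors of the proteasome. They were taken as all array probes whose annotated gene symbol is Psma, Psmb, Psmc, Psmd, Psme, Psmf or Psmg followed by digits, which gave 66 probes for 45 genes among the 27495 probes of the series. Each gene had 1 to 3 probes, and 17 genes had more than 1. Psmb11, Psmf1 and Psmg4 had no probe with their symbol, and Psmc3ip and Psme3ip1, which encode interacting proteins and not subunits, were left out. The 66 probes fell into 7 classes, namely 10 probes for 8 alpha subunits of the 20S core, 11 for 7 standard beta subunits, 6 for the 3 immunoproteasome beta subunits, 7 for 6 ATPases of the 19S cap, 17 for 11 other 19S subunits, 6 for 4 activators, and 9 for 6 assembly factors.

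The study followed J1 cells, a mouse embryonic stem cell line, and measured their total RNA on 6 one-colour bead arrays. Cultures received 150 ng/ml of Noggin, a secreted protein that blocks bone morphogenetic protein signalling, or a mock treatment. Each treatment has 1 array at day 0, 1 at day 2 and 1 at day 4. Days 2 and 4 were embryoid bodies, the floating aggregates in which stem cells differentiate, cultured without leukaemia inhibitory factor. Noggin was given for 3 days before aggregation and withdrawn on the second day after it. Groups follow the source labels, because a further label field names the Noggin treatment on all 6 arrays, mock arrays included. Whether day 0 with Noggin means cells sampled at the start or the end of the 3 days of treatment is not settled. J1 is a single cell line, and nothing says that the arrays came from separate cultures, so p-values measure only the spread between these arrays. Time and the change of culture conditions cannot be told apart in contrasts with day 0.

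The proteasome is the main protein-degrading machine of the cytosol and nucleus. Its 20S core is a barrel of outer alpha rings, which gate entry, and inner beta rings, which hold the proteolytic sites of Psmb5, Psmb6 and Psmb7. The 19S cap binds ubiquitin-tagged proteins, removes the tag, and unfolds and feeds them into the core with a ring of ATPases encoded by Psmc genes. In immune cells and after interferon the active subunits can be replaced by Psmb8, Psmb9 and Psmb10, which form the immunoproteasome, and the core can take the activator made of Psme1 and Psme2 in place of the cap. Induction of this activator and of immunoproteasome subunits has been described in early differentiation of mouse embryonic stem cells.

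Promoter sequences were matched for 37 of the 45 genes in the RefSeq promoter table of the build GRCm38.p6, each 250 bases before to 50 bases after the annotated start. The 6 below belong to genes that rose from day 0 to day 2, chosen to show the immunoproteasome subunits, an activator subunit, an alpha subunit and an assembly factor. Capitals mark matches, on either strand, to GGGCGG (GC box), GAAANNGAA (interferon regulatory factors), TTCNNNGAA (STAT factors), TGACNNNGC (antioxidant response element), GCGCNTGCG (nuclear respiratory factor 1) or the CCAAT box, whose name spells its letters, any of which may overlap.
Psmb8, chr17:34197945-34198244, plus strand: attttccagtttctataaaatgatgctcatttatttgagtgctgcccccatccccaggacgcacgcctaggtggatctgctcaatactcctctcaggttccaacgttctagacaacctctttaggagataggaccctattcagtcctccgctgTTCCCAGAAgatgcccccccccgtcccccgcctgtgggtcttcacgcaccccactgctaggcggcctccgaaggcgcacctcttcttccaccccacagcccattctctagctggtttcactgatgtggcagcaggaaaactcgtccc
Psmb9, chr17:34187281-34187580, minus strand: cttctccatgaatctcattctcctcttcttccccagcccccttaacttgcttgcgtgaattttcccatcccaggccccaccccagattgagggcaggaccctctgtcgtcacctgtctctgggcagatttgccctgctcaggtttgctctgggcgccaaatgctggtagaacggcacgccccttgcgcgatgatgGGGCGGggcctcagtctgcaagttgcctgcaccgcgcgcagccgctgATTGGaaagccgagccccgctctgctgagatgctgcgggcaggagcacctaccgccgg
Psmb10, chr8:105938343-105938642, minus strand: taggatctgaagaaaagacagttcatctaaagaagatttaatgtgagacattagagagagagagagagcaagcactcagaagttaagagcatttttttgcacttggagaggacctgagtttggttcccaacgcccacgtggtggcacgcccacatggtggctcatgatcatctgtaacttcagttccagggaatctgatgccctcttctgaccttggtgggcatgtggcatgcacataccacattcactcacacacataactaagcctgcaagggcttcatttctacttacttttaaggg
Psme1, chr14:55578244-55578543, plus strand: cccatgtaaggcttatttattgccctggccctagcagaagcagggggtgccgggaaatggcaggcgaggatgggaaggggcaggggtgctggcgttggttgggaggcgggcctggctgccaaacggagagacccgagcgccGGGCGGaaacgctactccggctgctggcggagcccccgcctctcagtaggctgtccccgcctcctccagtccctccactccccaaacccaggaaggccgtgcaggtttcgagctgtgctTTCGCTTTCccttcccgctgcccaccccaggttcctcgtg
Psma2, chr13:14612992-14613291, plus strand: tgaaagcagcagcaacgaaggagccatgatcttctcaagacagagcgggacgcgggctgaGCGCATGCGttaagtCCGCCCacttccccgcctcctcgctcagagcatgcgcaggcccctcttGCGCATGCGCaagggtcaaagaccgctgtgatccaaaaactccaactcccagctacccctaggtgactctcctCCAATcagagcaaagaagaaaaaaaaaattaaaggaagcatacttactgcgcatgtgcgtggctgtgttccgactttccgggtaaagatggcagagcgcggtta
Psmg3, chr5:139826845-139827144, minus strand: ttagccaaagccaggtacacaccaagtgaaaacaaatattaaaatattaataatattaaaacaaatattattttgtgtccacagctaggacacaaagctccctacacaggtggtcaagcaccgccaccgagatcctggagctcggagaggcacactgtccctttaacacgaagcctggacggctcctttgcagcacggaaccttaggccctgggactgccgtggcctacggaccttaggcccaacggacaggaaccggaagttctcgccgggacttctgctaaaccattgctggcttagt

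The STAT motif was found at Psmb8, a GC box and a CCAAT box at Psmb9, the interferon regulatory factor motif and a GC box at Psme1, and the nuclear respiratory factor 1 motif with a GC box and a CCAAT box at Psma2. The windows of Psmb10 and Psmg3 held no match to these 6 motifs. Over all 32851 promoters of the table, the interferon regulatory factor motif was in 8.56%, the STAT motif in 8.3%, the antioxidant response element in 12.4%, the nuclear respiratory factor 1 motif in 6.31%, the GC box in 35.7% and the CCAAT box in 37.4%. Among the 37 proteasome genes these motifs were found, in the same order, at 6, 3, 6, 7, 22 and 13 genes. The 7 genes with the nuclear respiratory factor 1 motif were Psma2, Psma3, Psma4, Psmc4, Psmc5, Psmd14 and Psmg1. In the RefSeq gene table of that assembly, Psmb9 and Psmb8 are separated on chromosome 17 by Tap1 alone among protein-coding genes, and Psme1 and Psme2 on chromosome 14 by Emc9.

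Values are the authors' quantile-normalised log2 intensities, which had a median of 7.37 on every array. Of the 66 proteasome probes, 63 for 44 genes lay above that median on at least 2 arrays and were tested with limma together with 15168 probes in all, at a Benjamini-Hochberg adjusted p under 0.05. The other 3 were the Psma6 probe, the dimmer Psma3 probe and the dimmest Psmb8 probe, at 7.02 to 7.30. Array intensities of the 66 probes ran from 100.5 to 14863.9, against lowest intensities of 91.4 to 101.4 and medians of 152 to 176.55 on whole arrays. Arrays of the same day correlated at 0.983 to 0.997 over all probes. The stem cell markers Pou5f1, Sox2, Nanog, Zfp42, Esrrb, Klf4, Utf1 and Tdgf1 were all above the filter, and their summed linear level was 40302 with Noggin and 38874 with mock at day 0. At day 2 it was 14945 and 17134, and at day 4 it was 8578 and 17571. This sum is led by its brightest genes. From day 0 to day 2, Klf4 and Nanog passed as falls and 6 did not pass, beside 27.6% of all probes called. Among those 6, Pou5f1, Utf1 and Tdgf1 differed by 0.165, 0.51 and 0.105.

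From stem cells to day 2 embryoid bodies, 23 proteasome probes for 18 genes rose and 1 probe of Psmd7 fell, and 39 did not pass. Over all tested probes 27.6% passed, 14.3% as rises and 13.3% as falls, beside 38.1% of the proteasome probes, 36.5% as rises and 1.59% as falls. The gap in the share called depends on the filter. With the filter at the 75th percentile, which keeps brighter probes, the share of all probes called came closer to that of the proteasome probes. Of the 21 proteasome calls at that filter, 20 were rises, and the rises among all probes were not counted there. The median difference over the 44 genes, each at its brightest probe, was 0.285 on the log2 scale, beside 0.01 over all tested probes. These are unlike measures, since a median over the brightest probe of every gene was not taken. All 24 called probes moved the same way in the Noggin and in the mock cultures, the rises by 0.31 to 2. The test takes its spread from the disagreement between the treatments, so calls favour probes that agree, and this is no further support. Rises came in every class. By brightest probe, 5 of 7 alpha, 2 of 7 standard beta, 3 of 3 immunoproteasome, 1 of 6 ATPase, 1 of 11 other 19S, 2 of 4 activator and 2 of 6 assembly genes rose. Of these, Psmb8 and Psmb9 entered the test through their later arrays, so their rises are not a count in support. The calls need all 4 arrays of the days compared: without any 1 of them limma called none of the 63 probes, nor any of the 15168, with 22 to 30 of the 63 at an unadjusted p under 0.05.

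**Figure D1:**
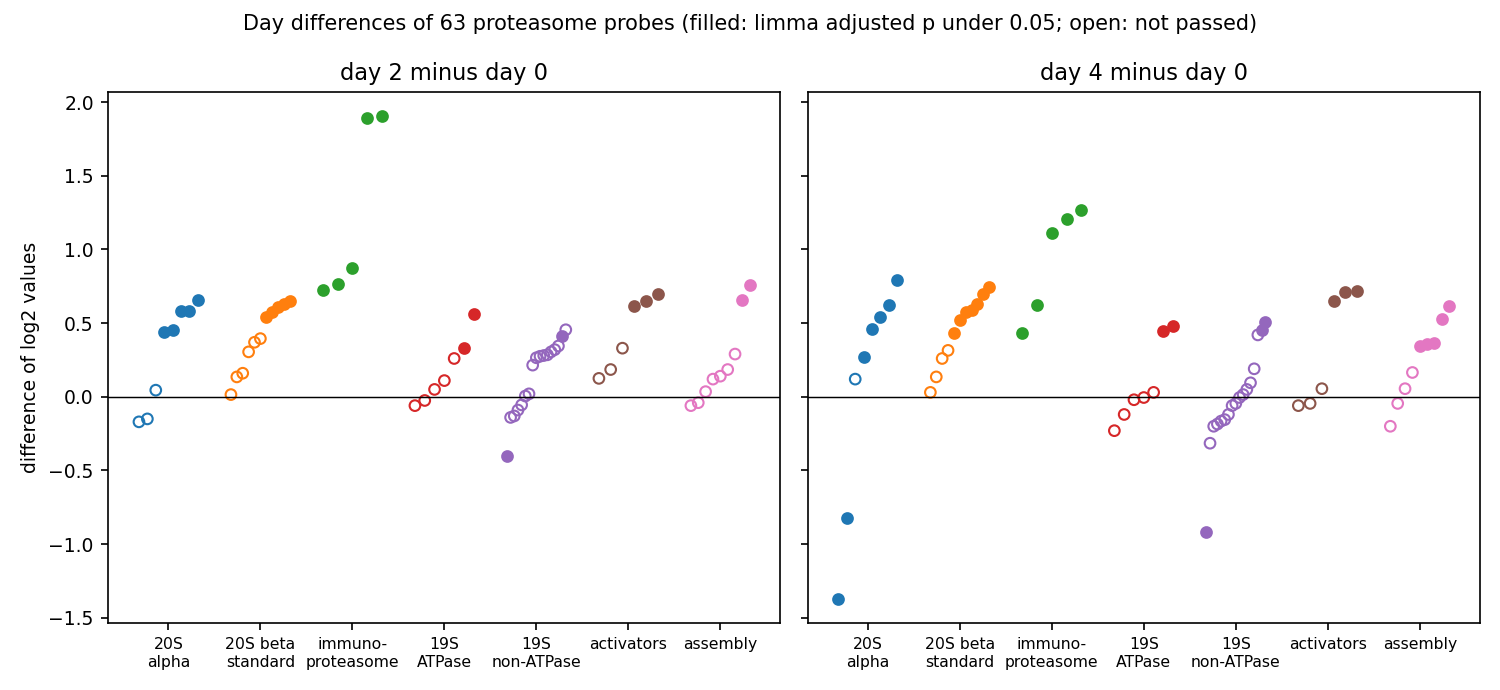
Difference of log2 values between days, averaged over Noggin and mock, for the 63 tested proteasome probes by class, with day 2 minus day 0 on the left and day 4 minus day 0 on the right. Filled points passed limma at an adjusted p under 0.05 and open points did not; the highest points of both panels are immunoproteasome probes, of which Psmb9 and both Psmb8 probes entered the test through their later arrays.

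Psmb10, which replaces the trypsin-like subunit Psmb7 in the immunoproteasome, had the largest day 2 rise among the proteasome genes. Its brighter probe read 8.54 (Noggin) and 8.47 (mock) at day 0, then 10.41 and 10.39 at day 2, then 9.77 on both day 4 arrays. Its dimmer probe stood at 8.19 and 8.01, then at 10 and 10.01, then at 9.20 and 9.23. On both probes the day 2 arrays were highest and the day 0 arrays lowest, and the share of all probes ordered like this was not counted. The rise from day 0 to day 2 was 1.895 (SE 0.0797, limma adjusted p = 0.000977) and 1.905 (SE 0.0925, limma adjusted p = 0.0012), which is 3.72-fold and 3.75-fold. From day 2 to day 4 Psmb10 fell by 0.63 at the brighter probe (SE 0.0797, limma adjusted p = 0.00784), and the dimmer fell by 0.79 (SE 0.0925, limma adjusted p = 0.00705). It remained 2.4-fold and 2.17-fold above day 0 (limma adjusted p = 0.000929 and 0.00147).

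Psmb8, which replaces the chymotrypsin-like subunit Psmb5, rose at both tested probes. The brighter probe stood at 7.29 (Noggin) and 7.44 (mock) at day 0, then 8.40 and 8.08 at day 2, then 8.72 and 8.43 at day 4. Its rise was 0.875 to day 2 (SE 0.137, limma adjusted p = 0.00954) and 1.21 to day 4 (SE 0.137, limma adjusted p = 0.00282). The second probe, at 7.32 and 7.08, then 8.09 and 7.76, then 7.82 and 7.83, rose by 0.725 (SE 0.108, limma adjusted p = 0.00845) and 0.625 (SE 0.108, limma adjusted p = 0.00929). Both probes were at or near the array median at day 0, and the brighter probe was higher on the Noggin than on the mock array at day 2, by 0.32, and at day 4, by 0.29. The third probe stayed between 7.12 and 7.30 on all arrays and was not tested. Psmb9, which replaces the caspase-like subunit Psmb6, stood at 7.09 and 7, then 7.82 and 7.80, then 7.5 and 7.46. It rose by 0.765 to day 2 (SE 0.0797, limma adjusted p = 0.00353) and then fell by 0.33 to day 4 (SE 0.0797, limma adjusted p = 0.0355), a fall that scaling arrays to a common median left unpassed (limma adjusted p = 0.0572). Its day 0 values, like those of Psmb8, lie near or below the array median of these uncorrected intensities. Psmb9 and both Psmb8 probes passed the filter through their later arrays, so the size of their rises is compressed and their passing is not a count in support. With background correction Psmb9 rose by 1.2 to day 2 (limma adjusted p = 0.00183).

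The activator genes Psme1 and Psme2, whose products form a ring that opens the core without ubiquitin, rose with them. The brighter Psme1 probe stood at 10.22 (Noggin) and 10.16 (mock) at day 0, then 10.74 and 10.94 at day 2, then 10.94 and 10.86 at day 4. The rise to day 2 was 0.65 at this probe and 0.695 at the other (SE 0.103 and 0.0845, limma adjusted p = 0.00992 and 0.0049). Psme2 stood at 7.99 and 8.06, then 8.64 on both arrays, then 8.75 and 8.74, a rise of 0.615 to day 2 (SE 0.0804, limma adjusted p = 0.00581). All embryoid body arrays were above all day 0 arrays for both genes, an order whose share over all probes was not counted. Neither gene passed from day 2 to day 4. Psme3, which encodes a nuclear activator, and Psme4, which encodes the activator PA200, did not pass at any probe in any contrast, with differences to day 2 of 0.125 for Psme3 and 0.33 and 0.185 for Psme4.

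**Figure D2:**
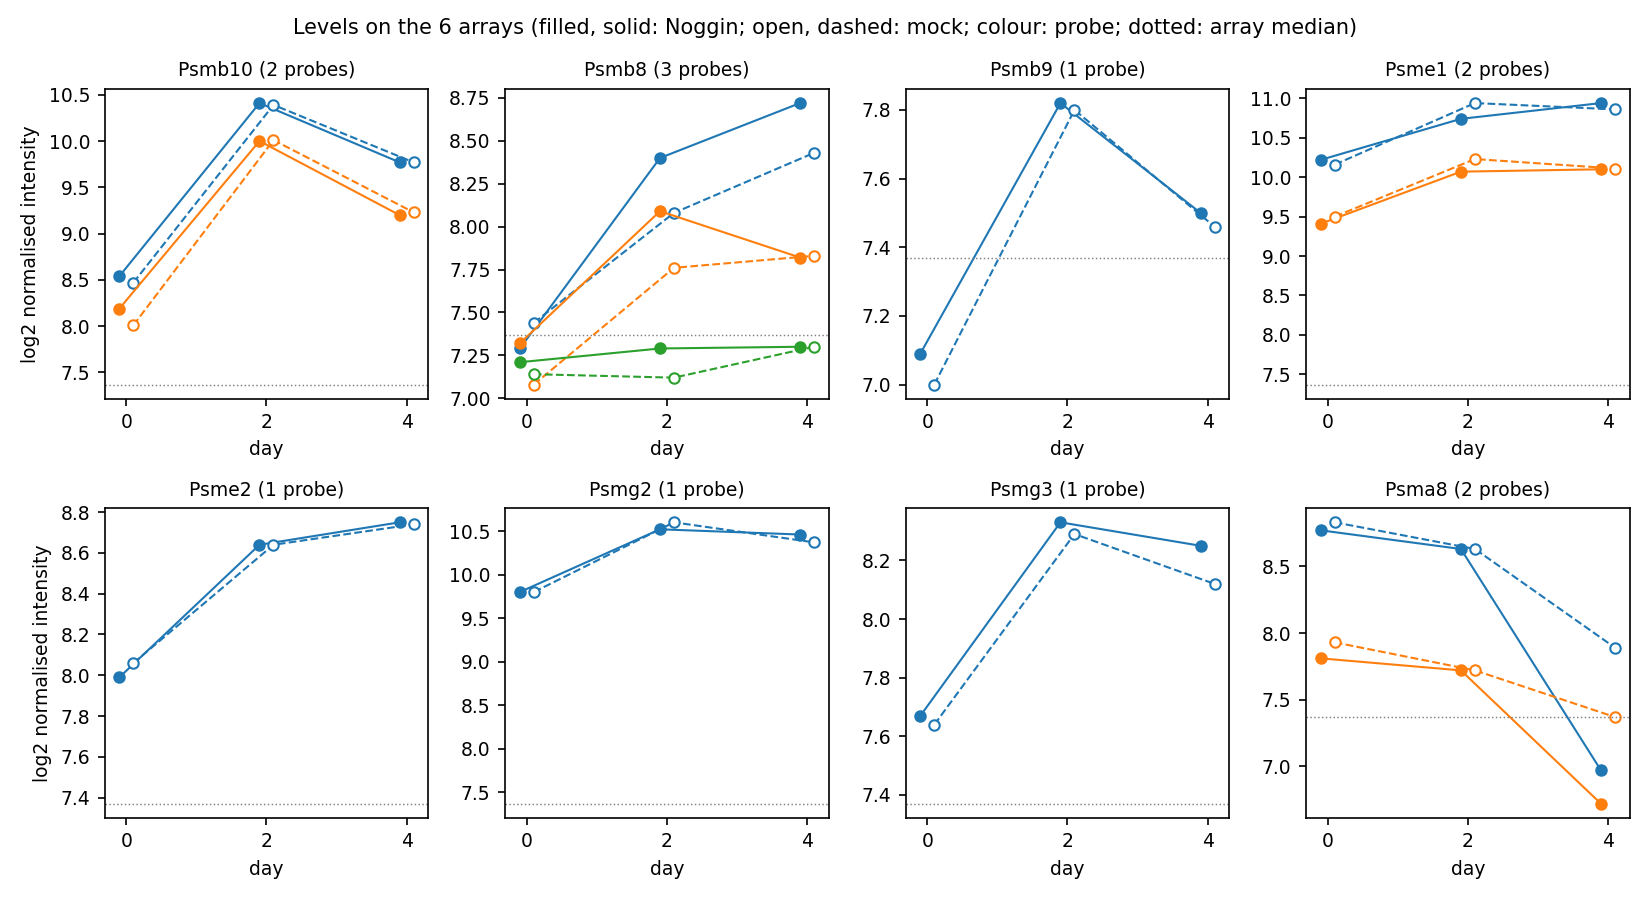
Log2 normalised intensity against day for 8 genes of the immunoproteasome, activator, assembly and alpha classes. Filled points with solid lines are Noggin arrays, open points with dashed lines are mock arrays, each colour is a probe and the dotted line is the array median of 7.37. Psmb10 peaks at day 2 at 10.41 and 10.39, and both Psma8 probes are lowest on the day 4 Noggin array.

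Alpha subunits of the core rose in most cases. Psma1 stood at 9.57 (Noggin) and 9.71 (mock) at day 0, then 10.28 and 10.31 at day 2, then 10.45 and 10.42 at day 4. It rose by 0.655 to day 2 and 0.795 to day 4 (SE 0.0864 each, limma adjusted p = 0.00597 and 0.00261). Psma4 and Psma7 rose by 0.58 each to day 2, Psma5 by 0.455 and Psma2 by 0.44, at limma adjusted p from 0.00946 to 0.0153. All 5 also passed from day 0 to day 4, with rises of 0.27 for Psma2 to 0.795, and Psma2 at adjusted p = 0.0477 was the weakest. Its day 4 call was lost with background correction (limma adjusted p = 0.0922), with the filter at the 75th percentile (0.0588) and without treatment in the model (0.0763), while under scaling to a common median the rise was 0.518 (0.0123). Psma3 did not pass, at 13.54 and 13.45, then 13.67 and 13.41, then 13.61 and 13.62.

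Psma8 was the exception among alpha genes. It encodes a paralogue of Psma7 known from male germ cells. Its brighter probe stood at 8.77 (Noggin) and 8.83 (mock) at day 0, 8.63 on both arrays at day 2, and 6.97 and 7.89 at day 4. Its dimmer probe stood at 7.81 and 7.93, then 7.72 on both arrays, then 6.72 and 7.37. The day 4 arrays were below all others on both probes, and the Noggin array was the lower of the 2. How many of all probes had this order was not counted. Differences to day 2, of -0.17 and -0.15, did not pass. From day 2 to day 4 Psma8 fell by 1.2 (SE 0.232, limma adjusted p = 0.0201) at the brighter probe and fell by 0.675 (SE 0.167, limma adjusted p = 0.0374). The second of these calls was lost under scaling to a common median (limma adjusted p = 0.0625). Without the day 4 Noggin array the differences were -0.755 (limma adjusted p = 0.0396) and -0.38 (limma adjusted p = 0.071). The Noggin values at day 4 lie below the array median, so the sizes are compressed. The dimmer probe passed the filter only through its day 0 and day 2 arrays, so its passing is not a count in support. On the same day 4 arrays the stem cell markers Zfp42 and Esrrb stood at 7.99 and 7.88 with Noggin against 10.87 and 11.06 with mock. These had the widest gaps among the stem cell markers. Pou5f1 stood at 10.02 against 10.94, Klf4 at 7.71 against 8.03 and Tdgf1 at 11.75 against 11.85. The part of stem cells in the Psma8 values was not tested.

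Among standard beta subunits, Psmb2 and Psmb3 rose at both of their probes. Psmb2 rose by 0.54 and 0.65 to day 2 (SE 0.0824 and 0.079, limma adjusted p = 0.00902 and 0.0049) and by 0.70 and 0.745 to day 4. Its brighter probe stood at 11.64 (Noggin) and 11.53 (mock), then 12.20 and 12.05, then 12.40 and 12.17. Psmb3 rose by 0.575 and 0.61 to day 2 (limma adjusted p = 0.00681 and 0.0169) and by 0.52 and 0.43 to day 4, the latter unpassed under scaling to a common median (0.0582) and at 0.255 without the day 4 mock array (0.0671). The catalytic genes Psmb5 and Psmb6 did not pass in any contrast, with differences to day 2 of 0.37 (SE 0.111, limma adjusted p = 0.0596) and 0.015. Psmb1 at 0.16 and Psmb4 at 0.135 did not pass either. These latter 2 encode beta subunits without an active site.

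Psmb7, the trypsin-like catalytic subunit, had 3 probes, all tested. At day 0 the brightest stood at 11.64 with Noggin and 11.93 with mock, the next at 11.42 and 11.85, and the dimmest at 11.06 and 11.58. At day 2 they stood at 12.26 and 12.10, at 11.89 and 11.99, and at 11.97 and 11.93. At day 4 they stood at 12.31 and 12.41, at 12.23 and 12.22, and at 11.88 and 12.02. The day 0 Noggin array was thus the lowest of the 6 on every probe, with Noggin minus mock at -0.29, -0.43 and -0.52, which is 1.22-fold, 1.35-fold and 1.43-fold lower. Of 12837 probes above the median on both day 0 arrays, 44, 5 and 3 were at or below these differences, the probes themselves included. Of 1926 genes with more than 1 such probe, 1 gene, Psmb7, had all of its probes at or below -0.29. That limit is the highest of the Psmb7 values, so Psmb7 met it by construction, and these counts are no support. Psmb7 was singled out because its day 0 difference was already known. It rests on 1 array of each kind and carries no test, and at days 2 and 4 the same differences ran from -0.14 to 0.16.

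The day 0 Noggin array enters every Psmb7 difference from day 0, so the values by treatment restate its low level and are no further observation. In Noggin cultures its 3 probes differed between day 0 and day 2 by 0.62, 0.47 and 0.91, and in mock cultures by 0.17, 0.14 and 0.35. From day 0 to day 4 they differed by 0.67, 0.81 and 0.82 with Noggin and by 0.48, 0.37 and 0.44 with mock. Averaged over treatments only the dimmest probe passed at day 2, with a rise of 0.63 (SE 0.145, limma adjusted p = 0.0285), beside 0.395 (adjusted p = 0.067) and 0.305 (adjusted p = 0.13) by limma at the others. All 3 passed from day 0 to day 4, with rises of 0.575, 0.59 and 0.63 (SE 0.124, 0.125 and 0.145, limma adjusted p = 0.0178, 0.0169 and 0.0215). The brightest probe also passed at day 2 without treatment in the model (limma adjusted p = 0.046), and the dimmest was lost without the day 4 arrays (0.0722). Without the day 0 Noggin array the 3 differences to day 2 were 0.235, 0.1125 and 0.395, and those to day 4 were 0.415, 0.3975 and 0.395. Day 0 is then 1 array, and no probe of the whole array passed, so the lack of a call says nothing of Psmb7 in particular.

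**Figure D3:**
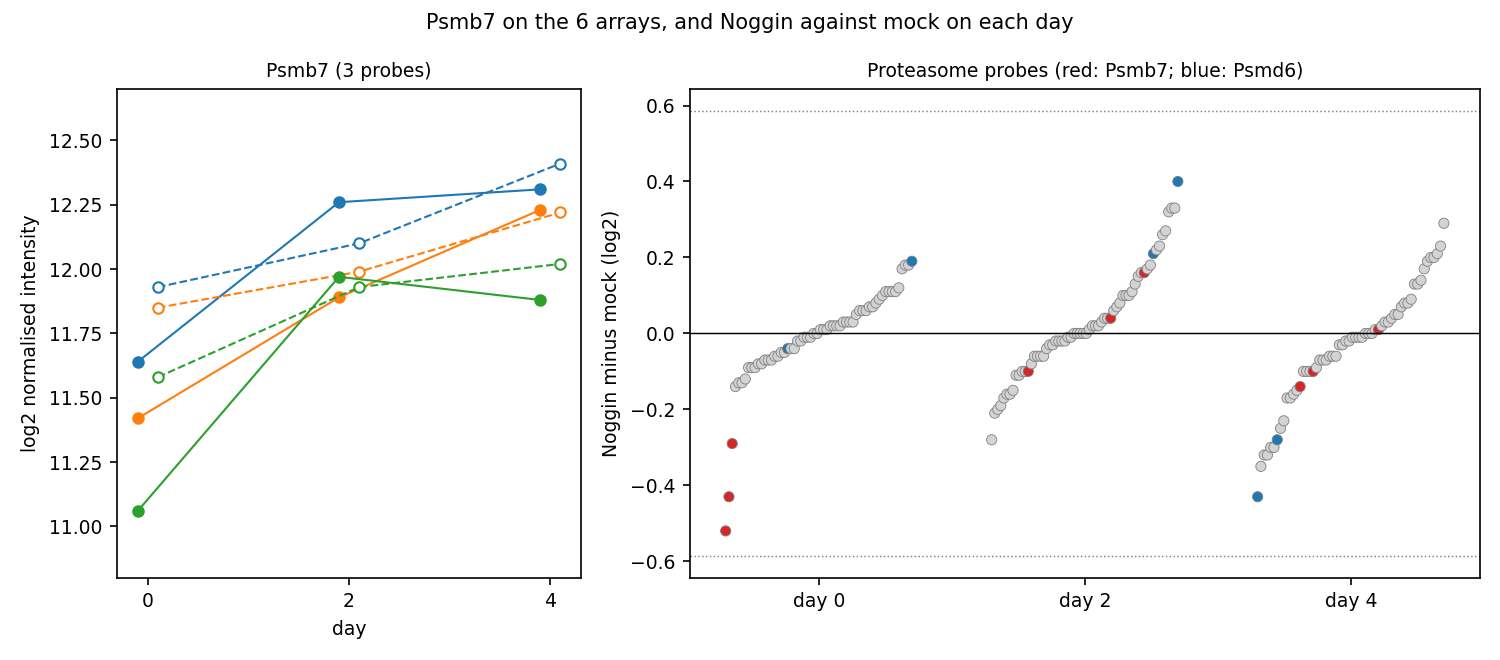
Left, log2 normalised intensity of the 3 Psmb7 probes against day, with Noggin filled and solid, mock open and dashed, and blue, orange and green from the brightest to the dimmest probe. Right, Noggin minus mock (log2) of each proteasome probe above the median on both arrays of a day, ordered by value, with dotted lines at 1.5-fold; the lowest 3 points at day 0, at -0.52, -0.43 and -0.29, are Psmb7.

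Of the 7 ATPase probes of the 19S cap 2 rose from day 0 to day 2, and of the 17 other cap probes 1 rose and 1 fell, beside 14.3% rising and 13.3% falling over all probes. Among ATPases, Psmc1 rose by 0.56 to day 2 (SE 0.0826, limma adjusted p = 0.00817) and 0.445 to day 4, from 9.62 (Noggin) and 9.61 (mock) through 10.12 and 10.23 to 10.05 and 10.07. Psmc6 stood at 9.78 and 9.67, then 9.89 and 9.66, then 10.24 and 10.17, and rose from day 2 to day 4 by 0.43 (SE 0.0859, limma adjusted p = 0.0215). Psmc5 moved the other way at that step. Its probes stood at 11.96 and 11.94, then 12.20 and 12.22, then 11.80 and 11.86, and at 10.31 and 10.44, then 10.62 and 10.79, then 10.10 and 10.19. From day 2 to day 4 the brighter one fell by 0.38 (SE 0.0801, limma adjusted p = 0.0246), and the dimmer one fell by 0.56 (SE 0.0801, limma adjusted p = 0.01), so that day 2 was the highest day on both. The dimmer Psmc5 probe was the other ATPase rise at day 2, at 0.33 (limma adjusted p = 0.0334), a call lost with background correction (0.0574). Psmc2, Psmc3 and Psmc4 did not pass in any contrast, with differences to day 2 of -0.025, -0.06 and 0.11.

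The 11 other 19S genes include the receptors for ubiquitin chains and shuttle proteins, Psmd4 and Psmd2, and the deubiquitinase Psmd14. The brighter Psmd2 probe rose by 0.415 to day 2 (SE 0.0937, limma adjusted p = 0.0271), from 9.72 (Noggin) and 9.61 (mock) to 10.03 and 10.13, and stood at 9.71 and 9.81 at day 4. Psmd4 and Psmd14 did not pass, with differences to day 2 of -0.14 and 0.005. Psmd1, Psmd3, Psmd8, Psmd11 and Psmd12 did not pass in any contrast either. From day 0 to day 4 the brighter Psmd13 probe rose by 0.45 (limma adjusted p = 0.0265) and the dimmer Psmd6 probe by 0.51 (limma adjusted p = 0.0292), the latter unpassed under scaling to a common median (0.0654). The other probe of each gene did not pass, at 0.015 for Psmd13 (limma adjusted p = 0.919) and 0.42 for Psmd6 (limma adjusted p = 0.153). Without the day 4 Noggin array the Psmd13 value was 0.2925, and without the day 4 mock array the Psmd6 value was 0.3275, both unpassed by limma.

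Psmd7, a structural partner of Psmd14, had the widest spread between probes in both contrasts with day 0, at 0.86 to day 2 and 0.91 to day 4, though 0.05 from day 2 to day 4. The brightest probe stood at 11.72 (Noggin) and 11.79 (mock), then 12.08 and 11.98, then 11.54 and 11.60. The second stood at 10.61 and 10.59, then 11.19 and 10.92, then 10.42 and 10.77. The dimmest, which is annotated to a cDNA clone and not to the reference transcript of the gene, stood at 8.89 and 8.86, then 8.44 and 8.50, then 8 and 7.92. It fell by 0.405 to day 2 (SE 0.0838, limma adjusted p = 0.0212) and fell by 0.915 to day 4 (SE 0.0838, limma adjusted p = 0.00179). The other 2 differed by 0.275 and 0.455 to day 2 and by -0.185 and -0.005 to day 4, and did not pass there. After day 2 the brightest probe fell by 0.46 (SE 0.0881, limma adjusted p = 0.0194). The second differed by -0.46 as well and did not pass (limma adjusted p = 0.081).

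Of the assembly factors, Psmg2 and Psmg3, chaperones of the alpha ring, rose by day 2. Psmg2 stood at 9.80 on both day 0 arrays, 10.52 (Noggin) and 10.60 (mock) at day 2, and 10.46 and 10.37 at day 4, a rise of 0.76 to day 2 (SE 0.0862, limma adjusted p = 0.00423). Psmg3 stood at 7.67 and 7.64, then 8.33 and 8.29, then 8.25 and 8.12, a rise of 0.655 (SE 0.0817, limma adjusted p = 0.00517). Psmg1, the partner of Psmg2, differed by 0.29 (SE 0.095, limma adjusted p = 0.0748) and did not pass in any contrast. Psmd5, Psmd9 and Psmd10 encode chaperones of the 19S base. All 3 probes of Psmd10, also called gankyrin, rose from day 0 to day 4 by 0.345 to 0.365 (limma adjusted p = 0.02 to 0.04) after differences of -0.06, -0.04 and 0.12 at day 2. The day 4 calls of the brightest and dimmest of these were lost under scaling to a common median (limma adjusted p = 0.068 and 0.0565). Psmd5 stood at 8.39 and 8.47, then 8.62 and 8.52, then 8.23 on both arrays, and after day 2 fell by 0.34 (SE 0.0871, limma adjusted p = 0.041). Psmd9 did not pass at either probe.

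From day 0 to day 4, 29 proteasome probes for 20 genes rose and 3 fell, which is 46% and 4.76%, beside 38.6% of all probes called, 19.5% higher and 19.1% lower. The 3 that fell were the probes of Psma8 and the dimmest probe of Psmd7. The dimmer Psma8 probe entered the test through its earlier arrays, so its falls to day 4, from either earlier day, are not a count in support. The rises include Psmb9, both tested Psmb8 probes and the dimmest Psmd10 probe, which entered the test through their later arrays. Since this contrast shares its day 0 arrays with day 2 minus day 0, its calls are not a second test of them. The gap in the share called from day 0 to day 4 also depends on the filter. With the filter at the 75th percentile limma called 26 of 53 proteasome probes, and the share of all probes called was nearly the same. Of these 26 calls 24 were rises, and the rises among all probes were not counted there. From day 2 to day 4, 3 proteasome probes rose and 10 fell, which is 4.76% and 15.9%, beside 25.6% of all probes called, 12.5% higher and 13.1% lower. The rises were Psmc6 and 2 probes of Psmd10, and the falls were Psmb10, Psmb9, Psma8, Psmc5, Psmd7 and Psmd5. The median over the 44 genes, each at its brightest probe, was 0.225 for day 4 minus day 0 and -0.055 for day 4 minus day 2. Over all tested probes, an unlike measure, it was -0.01 and -0.025. The day 4 minus day 2 calls rest on the whole set of arrays. With arrays scaled to a common median 6 of the 13 remained, and those of Psmb9, Psmd5, Psmc6, the dimmer Psma8 probe, and the brightest probes of Psmc5, Psmd7 and Psmd10 were lost at limma adjusted p from 0.0545 to 0.116. Without the day 0 arrays, or without any 1 array of day 0 or day 2, limma called 0 of 63 and 0 of all probes, with 10 to 17 of the 63 at an unadjusted p under 0.05. Without the day 4 Noggin array it called 5. For day 4 minus day 0 limma called 0 of 63 without either day 0 array, with 22 and 23 at an unadjusted p under 0.05, and 18 without the day 2 arrays.

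Of the 44 tested genes, 16 had more than 1 tested probe. From day 0 to day 2 the probes of 13 genes agreed in sign, and the median spread between the highest and lowest probe of a gene was 0.0925. From day 0 to day 4 they agreed for 14, with a median spread of 0.1125. All probes of a gene passed for 5 genes at day 2 and for 8 at day 4. Spreads over 0.5 occurred at Psmd7 in the first contrast, and at Psmd7, Psmb8 and Psma8 in the second.

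**Figure D4:**
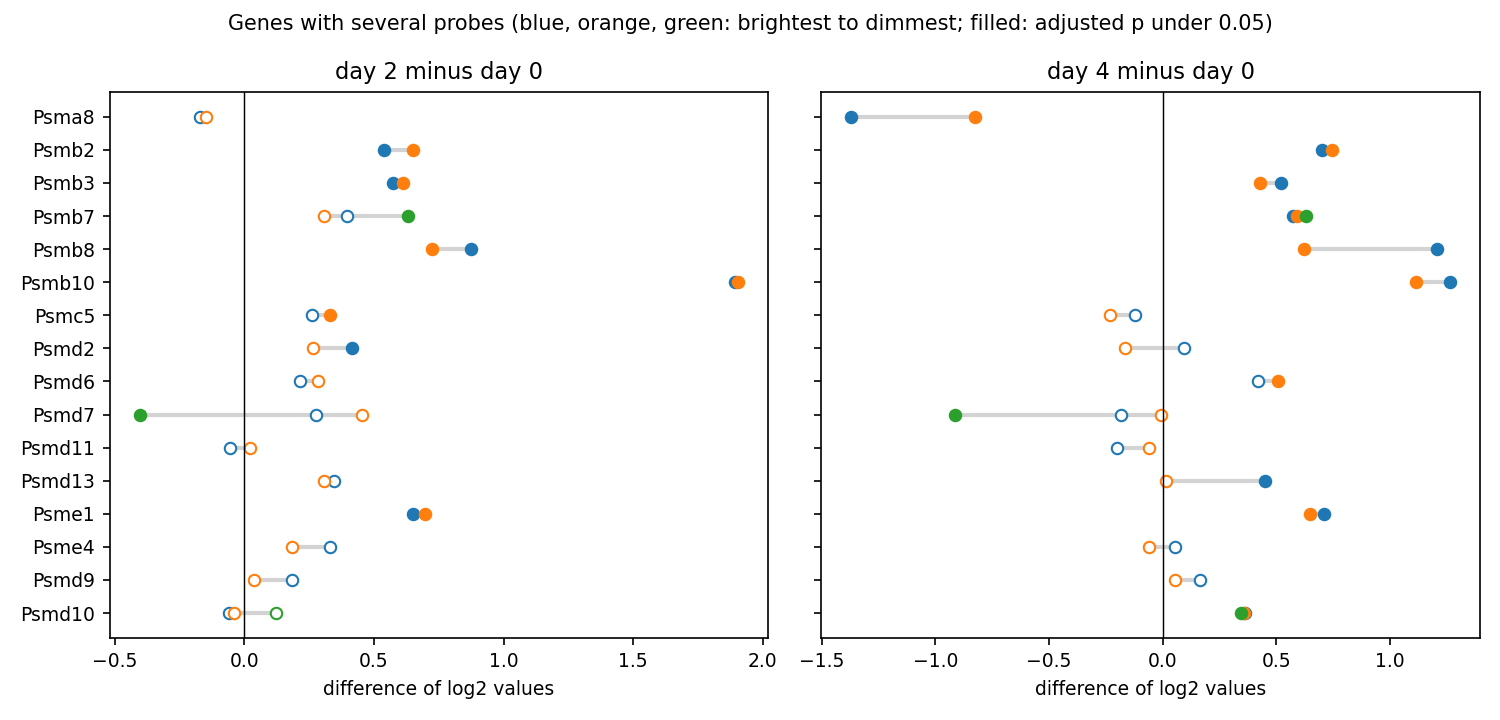
Difference of log2 values from day 0 to day 2 (left) and to day 4 (right) for the 16 genes with more than 1 tested probe, with blue, orange and green from the brightest to the dimmest probe and filled points past limma at an adjusted p under 0.05. The 2 Psmb10 probes lie together at 1.895 and 1.905, while the dimmest Psmd7 probe lies apart at -0.405 and -0.915.

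Between Noggin and mock on the same day, no proteasome probe differed by 1.5-fold or more above the median on both arrays, out of 58 at day 0, 62 at day 2 and 58 at day 4, while 0.0312%, 0.43% and 5.65% of all probes did. This filter left out the 2 Psma8 probes at day 4, because their Noggin values had fallen below the array median. For the brighter probe, at 7.89 with mock, the difference itself thus decided the exclusion. The dimmer probe, at 7.37 with mock, was not above the median there either. The 2 probes differed there by -0.92 and -0.65, both past 1.5-fold and the largest differences of any proteasome probe on a single day. These single-day differences have 1 array a group and no test. At day 0 the proteasome probes ran from -0.52 at Psmb7 to 0.19 at Psmd6, with a median of 0.005. At day 2 they ran from -0.28 at Psmd13 to 0.40 at Psmd6, with a median of 0. At day 4, with Psma8 left out by the filter, they ran from -0.43 at Psmd6 to 0.29 at Psmb8, with a median of -0.015.

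Within classes the single-day extremes were spread over many genes. At day 2, Psma3 at 0.26 and Psma7 at -0.21 bounded the alpha genes, Psmc6 at 0.23 and Psmc5 at -0.17 the ATPases, Psmb8 at 0.33 and Psmb10 at -0.01 the immunoproteasome probes, and Psme4 at 0.22 and Psme1 at -0.20 the activators. At day 4, non-ATPase 19S probes were lower with Noggin for 10 of 15, beside 5990 of 12577 probes in all. Their median was -0.17, beside 0.01 over all probes, whose differences had a standard deviation of 0.324. They ran from Psmd6 at -0.43 to Psmd3 at 0.20. Some genes have several of these probes, and each group is 1 array. The brighter Psmd6 probe stood at 9.99 (Noggin) and 9.80 (mock), then 10.31 and 9.91, then 10.10 and 10.53, so that the Noggin array was the higher at day 2 and the lower at day 4.

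Averaged over the 3 days, limma called 0 of 63 proteasome probes between Noggin and mock (smallest adjusted p = 0.969), as it called 0 of 15168 in all, which is 0%. At an unadjusted p under 0.05 there were 1 proteasome probe and 406 of all probes. That probe was the dimmer of Psmd13, which differed by -0.07, -0.28 and -0.32 on the 3 days and by -0.22 on average (SE 0.0791). The averages ran from -0.33 and -0.26 at the Psma8 probes to 0.19 at the dimmer of the tested Psmb8 probes.

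Genes that work with the proteasome but carry other symbols were read from 4 lists, each gene at its brightest probe. The shares of all probes called were 27.6% from day 0 to day 2 and 25.6% from day 2 to day 4. Of 7 partner genes with a probe, 3 rose from day 0 to day 2, namely Pomp by 0.79 (SE 0.109, limma adjusted p = 0.00679), Ecpas by 0.62 and Sem1 by 0.345. Pomp encodes the maturation factor of the beta rings, Ecpas a scaffold that holds core and cap together, and Sem1 a small 19S subunit. Ecpas rose further, by 0.705 from day 2 to day 4 (limma adjusted p = 0.00668), going from 9.73 (Noggin) and 9.61 (mock) to 10.42 and 10.33, and Sem1 by 0.54 (limma adjusted p = 0.0109), while Ube3c, a ligase bound to the proteasome, fell by 0.505 (limma adjusted p = 0.0132). Of 6 tested genes that control proteasome transcription, none passed to day 2. From day 2 to day 4 Maff rose by 0.565 (limma adjusted p = 0.0103), Nfe2l2 fell by 0.42 (limma adjusted p = 0.0366) and 4 did not pass. Nfe2l1, the factor that raises proteasome gene transcription when degradation fails, stood at 11.20 and 11.30, then 10.88 and 11.05, then 10.90 and 11.15, and differed by -0.285 to day 2 (limma adjusted p = 0.0577). Of 6 genes of ubiquitin supply and delivery, Vcp, the ATPase that extracts ubiquitin-tagged proteins from complexes, rose by 0.57 to day 2 (limma adjusted p = 0.0402), and Ubqln4 fell by 0.465 from day 2 to day 4 (limma adjusted p = 0.0207).

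Genes of the MHC class I pathway, which presents the peptides that proteasomes make, and of the interferon response moved in both directions. Of 14 listed, 9 had a probe and 6 were tested. From day 0 to day 2, Irf1 and H2-K1 rose and B2m and Irf9 fell, beside 27.6% of all probes called. From day 2 to day 4, B2m, H2-D1 and H2-K1 rose and Irf1 fell, beside 25.6% of all probes called. Irf1, an interferon-induced transcription factor, stood at 8.04 (Noggin) and 8.09 (mock), then 9.35 and 9.38, then 8.37 and 8.52. It rose by 1.30 to day 2 (limma adjusted p = 0.00161) and then fell by 0.92 (limma adjusted p = 0.00426), so its highest day was the same as that of Psmb10. B2m, the light chain of MHC class I, stood at 10.72 and 10.41, then 9.13 and 9.06, then 10.92 and 10.71. It fell by 1.47 to day 2 (limma adjusted p = 0.00161) and then rose by 1.72 to day 4 (limma adjusted p = 0.00193). H2-K1 rose by 0.725 to day 2 and 1.16 from there to day 4 (limma adjusted p = 0.0206 and 0.00799). H2-D1 differed by 0 to day 2 and rose by 0.49 from there to day 4 (limma adjusted p = 0.0154). Gbp2 stayed between 7.21 and 7.52, and Tap2, Tapbp and Ifit3 lay below the filter.

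Markers of other cells moved over the same days. Of 8 fibroblast markers, the cell type used as feeders for stem cells, 5 had a probe and 3 were above the filter. The summed linear level of the 5 was 3193 with Noggin and 2499.5 with mock at day 0. It was 1011 and 985 at day 2, and 794 and 811 at day 4. Dcn fell by 2.575 from day 0 to day 2 (limma adjusted p = 0.00271), Thy1 fell by 0.975 (limma adjusted p = 0.00417), Pdgfrb differed by -0.395 (limma adjusted p = 0.101), and Col1a1 and Postn lay below the filter. Of 6 white blood cell markers only Laptm5 had a probe, and it fell by 2.905 (limma adjusted p = 0.00424) from 12.96 and 13.00 at day 0. The stem cell marker Esrrb stood at 13.12 and 13.16 on those arrays. A single gene cannot show whether white blood cells were present, so its fall is not read as their loss. The sum of 4 mesoderm markers stood at 798 and 831 at day 2 and 9713 and 2022 at day 4, and that of 5 endoderm markers at 1137 and 1124, then 3424 and 2519. The part of such cells in the proteasome differences was not tested. In RNA from whole cultures a change in the share of cells and a change in RNA per cell cannot be told apart.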

How the data were processed

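Total RNA of the 6 cultures was made into biotinylated cRNA, hybridised to bead arrays and stained with streptavidin-Cy3, per the labels' protocols. The authors' deposited table for the series holds log2 values for 27495 probes. Comparison with the deposited intensity tables of the arrays (27496 probes) showed that these are log2 intensities quantile-normalised without background correction or centring. Scanner software is not given in the sources used here. No detection values were used. Array probes were linked to table rows where all 6 values matched within 0.006, which linked 27491, and where both tables gave a clone accession, it matched for 2220 of 2220. Of the table's probes 19420 had 1 gene symbol, 6 several and 8069 none in the platform annotation, and symbols of all 66 members matched a mouse gene table of GRCm38.p6.

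limma 3.58.1 in R 4.3.3 was fitted with day and treatment as additive terms to the 15168 probes above the median on at least 2 arrays, with 2 residual and 3.53 prior degrees of freedom. Its code was tested on simulated data. A difference is later minus earlier day, averaged over treatments, or Noggin minus mock. With 1 array a group, the spread comes from the difference between treatments across days, and the number of arrays limits the precision. Members and lists were chosen with earlier results of these data known. Each class, list and contrast was described by counts and medians without a set test. Genes were named by class, with all-array values for Psmb7, the immunoproteasome genes, Psme1, Psme2 and the genes past the threshold, by size. Alternatives were normexp background correction (offset 50), median scaling, no filter or the 75th percentile, no covariate and leaving out each array. Leaving out both arrays of a day was added after seeing the data.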

Additional observations from a re-analysis of the deposited data

Results flagged for a closer look

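At 3 probes, all of non-ATPase subunits of the 19S cap, Noggin minus mock had opposite signs at days 2 and 4, each at least 1.2-fold in size, a limit set with the values known. The brighter Psmd6 probe was at 0.40 on the log2 scale at day 2 and at -0.43 at day 4. Psmd1, a scaffold subunit, was at 0.33 and -0.32, and the second Psmd7 probe was at 0.27 and -0.35. The difference between the days was not tested, since each group is 1 array. Among proteasome probes above the median on all 6 arrays these are 3 of 53, or 5.66%, beside 260 of 10894 probes in all, or 2.39%. The dimmer Psmd6 probe differed by 0.21 at day 2 and -0.28 at day 4, and the other Psmd7 probes by 0.10 and -0.06 at day 2 and by -0.06 and 0.08 at day 4.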

How the results depend on the processing

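Proteasome probes called in the 3 contrasts of days kept their sign under all alternatives that tested them. The 24 calls from day 0 to day 2 became 23 with background correction, 25 with arrays scaled to a common median, 24 without the filter, 21 with the 75th percentile filter and 32 without treatment in the model. Leaving out each array gave 0 to 28 calls, and leaving out both day 4 arrays gave 28. The 32 calls from day 0 to day 4 became 26 to 33 under the same 5 settings, 0 to 29 with an array left out, and 18 without both day 2 arrays. The 13 calls from day 2 to day 4 became 6 under scaling, 11 to 15 under the other 4 settings, 0 to 14 with an array left out, and 0 without both day 0 arrays. Where an array of a compared day is left out, the remaining one is assumed to vary like the others, and fewer arrays enter the fit. Noggin against mock gave 0 calls in every setting, and at day 4 the 1.5-fold count became 2, both Psma8, without the filter. Differences that changed sign were all uncalled and near 0. From day 2 to day 4 these were the dimmest Psmb7 probe (0, with -0.000808 after background correction, 0.0279 under scaling and -0.185 to 0.185 with an array left out), the second Psmb8 probe (-0.2475 to 0.0475) and the Psme1 probes (-0.075 to 0.195 and -0.1025 to 0.0125). For Noggin minus mock they were the brightest Psmb7 probe (-0.195 to 0.03), the dimmer Psmb10 probe (-0.02 to 0.085), the brighter Psme1 probe (-0.07 to 0.07, and 0.0048 under scaling) and Psme2 (-0.035 to 0.005). The cause was not tested. The model with day and treatment already compares days within treatments and treatments within days, and the fit without treatment is its unpaired form for days. Probes near the array median, such as Psmb8 and Psmb9, have compressed differences.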
